A study of Homo sapiens with 4 samples.

Results

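Ribosome biogenesis is described here through 57 protein-coding genes in BLaER1, a human B leukaemia line with an inducible transgene for the myeloid factor C/EBPα. The genes were chosen by name, as proteins that make and process ribosomal RNA, and each was found by its Ensembl ID among the 43450 gene IDs of the table. All 57 had a mean of at least 1 FPKM, read fragments scaled by transcript length and library depth, and stand among the 12935 genes tested. Polyadenylated RNA was sequenced from 2 control libraries and from 2 libraries of cells given 3 LNA GapmeRs, antisense oligonucleotides that direct cleavage of a target RNA, against the long non-coding RNA HAL7. The GapmeRs went into the medium without transfection. The libraries are numbered replicate 0 and replicate 1 in each group. All 4 come from the same line grown in the same medium. What the control cells received, how long treatment lasted and whether replicates were separate cultures is not given in the sources used here. Each p-value thus reflects the spread among 4 libraries, possibly technical.

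Ribosomes are built in the nucleolus, where RNA polymerase I transcribes a long precursor of the ribosomal RNAs. Small nucleolar RNAs guide chemical modification of that precursor, those of the box C/D class with the methyltransferase fibrillarin and those of the box H/ACA class with the pseudouridine synthase dyskerin. The small-subunit processome folds and cuts the 18S part, a separate set of GTPases, helicases and scaffold proteins assembles the large subunit, and the supply of all these factors is known to follow cell growth and proliferation.

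HAL7 stood at 0.726 and 0.613 FPKM in control replicates 0 and 1 and at 0.475 and 0.347 FPKM in knockdown replicates 0 and 1. It was lower in both knockdown libraries, and the ratio of mean FPKM, knockdown to control, was 0.614. The log2 change of HAL7 was -0.24 ± 0.11 (SE) when taken on log2(FPKM + 1). There the added 1 is larger than every HAL7 value, so the difference comes out smaller than in the ratio. The limma adjusted p was 0.32, so HAL7 did not pass the test. Steps in the low FPKM values correspond to 60.3, 127, 107 and 95.7 M fragments in control replicates 0 and 1 and knockdown replicates 0 and 1. At those depths the value of a described gene rested on a median of 9238 fragments. The smallest was 1476, for GAR1, where counting alone gives an error of 2.60%. B lineage markers summed to 2385 and 2434 FPKM in control and to 2322 and 2464 FPKM in knockdown libraries, with 9 of 9 at 1 FPKM or more. Of 7 macrophage and monocyte markers, CSF1R and CD68 reached 1 FPKM in every library, while CD14 ranged from 0.101 to 0.186 FPKM and LYZ from 0.0379 to 0.0786 FPKM. That list summed to 38.5 and 39.5 FPKM in control and to 36.6 and 40.3 FPKM in knockdown libraries. Of 5 T and NK cell markers 3 were listed at 0 in every library, as were 2 of 4 erythroid markers. NCAM1, of the T and NK list, stood at 3.41 and 2.98 FPKM in control and at 3.08 and 2.84 FPKM in knockdown libraries.

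The 57 genes lay slightly higher in the knockdown libraries, and mainly in knockdown replicate 1. Log2 changes, on the log2(FPKM + 1) scale, were positive in 54 of 57, against 46.8% of all genes tested. Their median was 0.09, against -0.01 over all genes. The median ratio of mean FPKM was 1.07. In limma 0 of 57 passed an adjusted p of 0.05, which 0.0309% of all genes passed. The smallest adjusted p was 0.19. At an unadjusted p under 0.05, 8 of 57 were higher, against 7.25% of all genes, and 0 were lower, against 9.35%. The 8 were NOC3L, NOP58, DDX10, GAR1, UTP15, UTP18, BRIX1 and NCL. In 29 of 57 genes both knockdown libraries exceeded both control libraries, where 22.5% of all genes did so. In 0 of 57 both lay below, where 27.7% of all genes did so. With bulk RNA, more cells in a growing state and more of these transcripts per cell cannot be told apart.

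In these genes the knockdown libraries differed from each other by more, in median, than knockdown replicate 0 differed from control. Knockdown replicate 1 exceeded both controls in 54 of 57 genes, against 38.1% of all genes tested, and lay below both in 0, against 40.7%. Knockdown replicate 0 exceeded both controls in 30 of 57, against 34.3%, and lay below both in 10, against 42.9%. Relative to the control mean, the median over the 57 genes was 0.16 in knockdown replicate 1 and 0.02 in knockdown replicate 0, where all genes had -0.0047 and -0.014. By pair, knockdown replicate 1 exceeded control replicate 0 in 57 of 57 genes, against 49.7% of all genes, and control replicate 1 in 54, against 47.7%. Knockdown replicate 0 exceeded control replicate 0 in 36 of 57, against 47.7%, and control replicate 1 in 41, against 43.7%. The median difference between the knockdown libraries was 0.13, with replicate 1 higher in 54 of 57 genes, against 50.3% of all genes and a median over all genes of 0.001. Of the 57 genes, 52 had their highest value of all in knockdown replicate 1, as did 27.2% of all genes tested. This last count was chosen after the values were seen. Without knockdown replicate 1, 39 of 57 log2 changes were positive, against 45.3% of all genes, and their median was 0.02. In that fit 3 of 57 were higher at an unadjusted limma p under 0.05, against 5.95% of all genes. Without knockdown replicate 0, 56 were positive, against 48.7% of all genes, their median was 0.16, and 31 were higher at an unadjusted limma p under 0.05, against 8.13%. That count was 2 without control replicate 0, against 5.36% of all genes, and 5 without control replicate 1, against 2.98%.

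**Figure D1:**
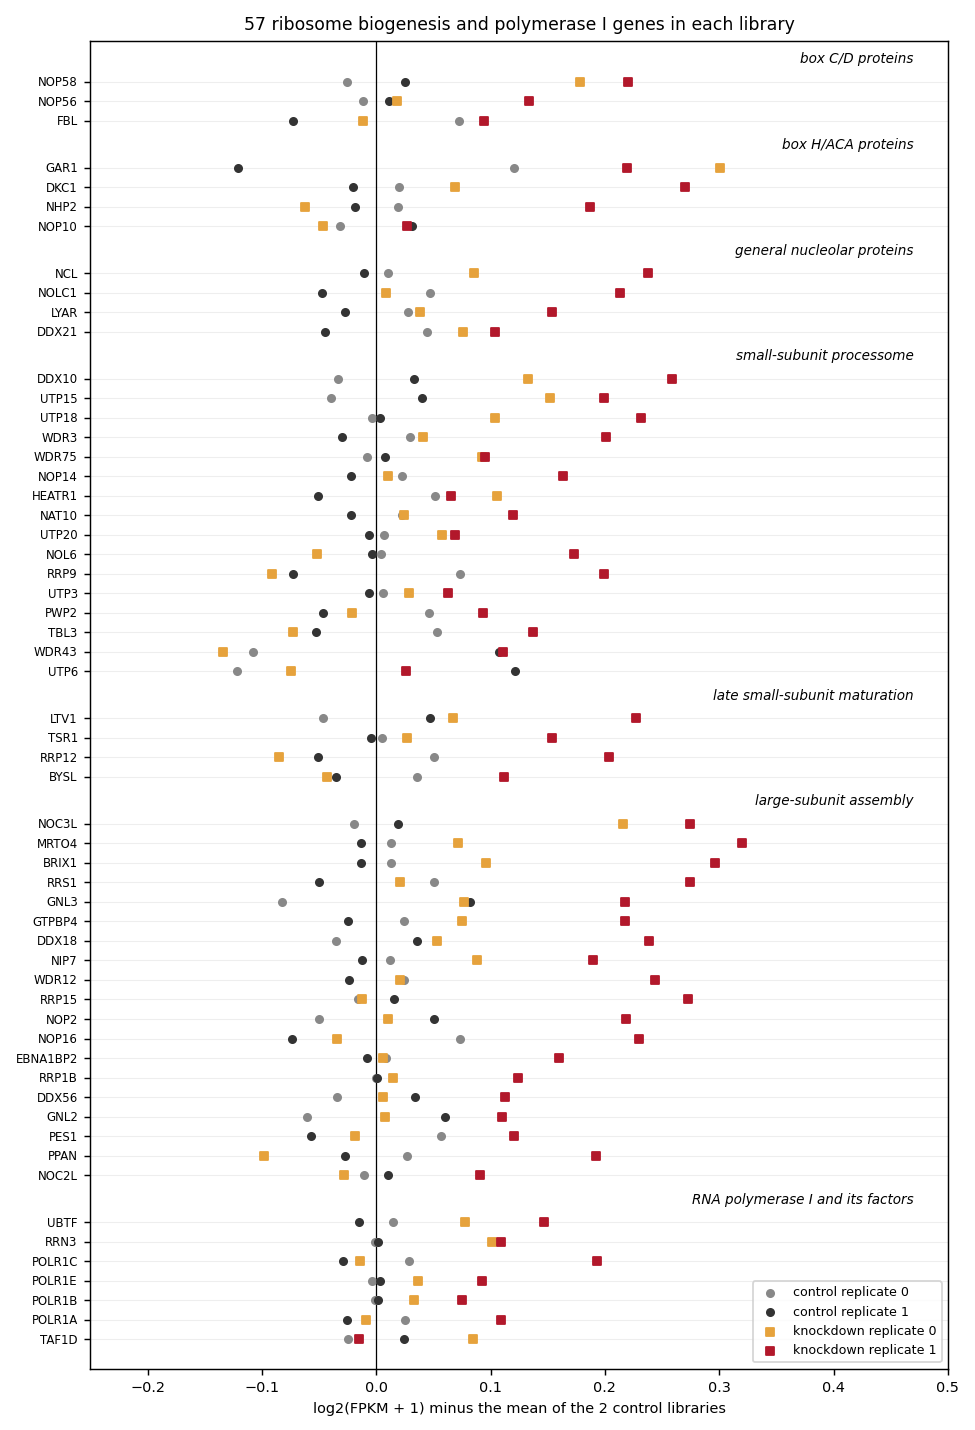
Each row is a gene, grouped by role and ordered by log2 change, and each point is a library. The x axis gives log2(FPKM + 1) minus the mean of the 2 control libraries. Dark red squares (knockdown replicate 1) lie rightmost in 52 of 57 rows, while orange squares (knockdown replicate 0) lie to the right of both controls in 30 and to the left of both in 10.

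Sequences upstream of the genes were searched for motifs, because these genes lay on the same side together. RefSeq promoters on GRCh38.p14 were matched by symbol for 50 of the 57 genes. The 250 bases before the start were read on both strands for 3 motifs. CCGGAAG, a form bound by ETS-family factors, was in 21 of 50 promoters (42.0%), against 17.2% of the 9457 promoters of genes tested and 8.82% of all 27305 in the table. The palindrome CACGTG, the canonical E-box, was in 5 of 50 (10.0%), against 9.05% and 6.49%. The palindromic NRF1 motif was in 3 of 50, DKC1, DDX10 and UTP18, against 2.13% and 1.13%. The median log2 change was 0.09 in the 21 genes with CCGGAAG and 0.09 in the 29 without it, and 0.07 in the 5 genes with CACGTG and 0.09 in the 45 without it. It was 0.17 in the 3 genes with the NRF1 motif and 0.09 in the 47 without it. A match describes the letters only. The promoters of 5 genes are shown as stretches outside annotated exons, GAR1, NOC3L and UTP18 because both knockdown libraries exceeded both controls, and FBL and RRP9 because the groups overlapped. All 5 were taken from the 21 genes with CCGGAAG, so they do not stand for the 29 promoters without it. They are chr4:109815411-109815509 (plus strand) for GAR1, chr10:94362960-94363189 (minus) for NOC3L, chr17:51260296-51260527 (plus) for UTP18, chr19:39846415-39846629 (minus) for FBL and chr3:51941942-51942154 (minus) for RRP9. Capitals mark CCGGAAG, its reverse complement CTTCCGG, and CACGTG, none of which overlap here.
GAR1: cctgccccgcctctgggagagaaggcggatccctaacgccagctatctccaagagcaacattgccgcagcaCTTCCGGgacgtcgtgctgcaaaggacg
NOC3L: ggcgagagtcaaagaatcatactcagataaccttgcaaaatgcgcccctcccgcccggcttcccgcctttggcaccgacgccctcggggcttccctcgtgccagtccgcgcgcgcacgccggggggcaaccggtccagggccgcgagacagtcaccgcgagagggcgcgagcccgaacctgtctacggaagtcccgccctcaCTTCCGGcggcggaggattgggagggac
UTP18: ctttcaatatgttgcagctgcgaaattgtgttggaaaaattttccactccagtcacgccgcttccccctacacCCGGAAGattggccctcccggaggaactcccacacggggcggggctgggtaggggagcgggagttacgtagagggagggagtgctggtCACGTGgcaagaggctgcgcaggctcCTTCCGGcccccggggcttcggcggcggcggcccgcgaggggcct
FBL: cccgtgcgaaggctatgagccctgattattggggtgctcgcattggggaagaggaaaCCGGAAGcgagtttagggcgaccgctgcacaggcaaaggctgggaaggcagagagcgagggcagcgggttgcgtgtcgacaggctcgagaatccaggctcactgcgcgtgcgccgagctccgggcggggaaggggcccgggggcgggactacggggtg
RRP9: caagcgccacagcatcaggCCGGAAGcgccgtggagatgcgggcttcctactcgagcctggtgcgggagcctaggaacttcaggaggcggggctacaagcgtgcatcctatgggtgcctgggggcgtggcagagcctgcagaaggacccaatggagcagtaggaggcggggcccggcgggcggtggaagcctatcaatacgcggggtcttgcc

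Among the box C/D proteins, NOP58 was separated between the groups while fibrillarin was not. NOP58, a core protein of these particles, stood at 64.6 and 66.9 FPKM in control replicates 0 and 1 and at 74.5 and 76.7 FPKM in knockdown replicates 0 and 1. Both knockdown libraries lay above both controls and close to each other, with means of 65.7 ± 1.65 and 75.6 ± 1.55 FPKM (SD, n = 2 each), a log2 change of 0.20 ± 0.05 (SE), at a limma adjusted p of 0.20. NOP58 (ENSG00000055044.5) spans 202265716 to 202303666 on the plus strand of chromosome 2 in GENCODE 29 on GRCh38. Its partner NOP56 stood at 245 and 248 FPKM in control and at 249.6 and 270.5 FPKM in knockdown libraries. Knockdown replicate 0 of NOP56 was therefore barely above control replicate 1, and the limma adjusted p was 0.55. FBL, the methyltransferase, stood at 263 and 237 FPKM in control and at 248 and 267 FPKM in knockdown libraries. Its groups overlapped, with a ratio of means of 1.03 and a limma adjusted p of 0.80.

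The box H/ACA proteins split into a pair on the higher side and a pair whose groups overlapped. GAR1, a core protein of the particle, stood at 20.0 and 16.8 FPKM in control and at 22.8 and 21.5 FPKM in knockdown libraries. Over all 4 libraries it had the largest log2 change of the 57 genes, 0.26 ± 0.09 (SE), with a limma adjusted p of 0.24, and it was one of 3 genes, with HEATR1 and TAF1D, whose highest value was in knockdown replicate 0. The log2 change of GAR1 was 0.38 without control replicate 0 and 0.14 without control replicate 1, where NOC3L stayed at 0.22 or more whichever library was left out. GAR1 (ENSG00000109534.12) spans 109815510 to 109824740 on the plus strand of chromosome 4. DKC1, the pseudouridine synthase dyskerin, stood at 78.8 and 76.6 FPKM in control and at 81.6 and 93.9 FPKM in knockdown libraries. Knockdown replicate 1 of DKC1 stood apart, the ratio of means was 1.13, and the limma adjusted p was 0.32. NHP2 stood at 98.5 and 96.0 FPKM in control and at 93.1 and 111 FPKM in knockdown libraries, so its knockdown values lay on either side of both controls. Exons of NHP2 overlap those of RMND5B on the opposite strand. NOP10, the smallest protein of the particle, stood at 106 and 111 FPKM in control and at 105 and 111 FPKM in knockdown libraries. It was one of 3 genes with a negative log2 change, -0.01 ± 0.05 (SE), and its limma adjusted p was 0.95.

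General nucleolar proteins lay higher in both knockdown libraries in 3 of 4 genes, against 22.5% of all genes tested. NCL, nucleolin, an abundant RNA-binding protein of the nucleolus, was the most abundant of the 57 genes per transcript length. It stood at 546 and 538 FPKM in control and at 576 and 639.8 FPKM in knockdown libraries. The spread between the knockdown libraries, 45.4 FPKM (SD), was far wider than that between the controls, 5.65 FPKM, with a log2 change of 0.16 ± 0.07 (SE), at a limma adjusted p of 0.30. Without knockdown replicate 1 the log2 change of NCL was 0.085. DDX21, an RNA helicase of early ribosomal RNA processing, stood at 99.998 and 93.9 FPKM in control and at 102 and 104 FPKM in knockdown libraries. LYAR, a nucleolar zinc-finger protein, stood at 17.6 and 17.0 FPKM in control and at 17.8 and 19.3 FPKM in knockdown libraries. For both, knockdown replicate 0 only just passed the higher control, and their limma adjusted p were 0.44 and 0.49. NOLC1, a chaperone of nucleolar particles, overlapped between the groups, with a ratio of 1.08.

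In the small-subunit processome 14 of 16 genes had positive log2 changes, and the median was 0.07. In 9 of 16 both knockdown libraries lay above both controls, against 22.5% of all genes tested. DDX10, a helicase of the processome, stood at 16.2 and 17.0 FPKM in control and at 18.3 and 20.0 FPKM in knockdown libraries, with a log2 change of 0.20 ± 0.07 (SE), at a limma adjusted p of 0.24. UTP15, a subunit of the subcomplex that first binds the precursor, stood at 10.5 and 11.2 FPKM in control and at 12.2 and 12.6 FPKM in knockdown libraries. Its exons overlap ANKRA2 on the opposite strand, and its limma adjusted p was 0.25. UTP18, a WD-repeat protein of the processome, stood at 39.9 and 40.1 FPKM in control and at 43.0 and 47.1 FPKM in knockdown libraries, at an adjusted p in limma of 0.26. These 3 of 16 were the only processome genes at an unadjusted limma p under 0.05, against 7.25% of all genes on the higher side. In each the lower knockdown value lay above the higher control, which rests on the same 4 values as the p and adds no support.

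WDR43 and UTP6, both processome subunits, were the genes of this role with negative log2 changes, and their control libraries already differed. WDR43, the most abundant of the 16, stood at 56.9 and 66.3 FPKM in control and at 55.9 and 66.4 FPKM in knockdown libraries. In WDR43 replicate 1 was higher in each group, and the ratio of means was 0.993. UTP6 stood at 34.9 and 41.5 FPKM in control and at 36.1 and 38.8 FPKM in knockdown libraries, both of the latter between the controls. The other 11 processome genes had ratios of 1.03 to 1.09 and limma adjusted p of 0.38 to 0.88. In 6 of them both knockdown libraries exceeded both controls, against 22.5% of all genes. Of those 11, 10 had their highest value in knockdown replicate 1. RRP9, a protein specific to the U3 particle, stood at 23.7 and 21.3 FPKM in control and at 21.0 and 25.9 FPKM in knockdown libraries, the lowest and the highest value both being knockdown libraries.

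Factors of late small-subunit maturation had a median log2 change of 0.07 over 4 genes. LTV1, a late assembly factor of the small subunit, stood at 23.8 and 25.5 FPKM in control and at 25.86 and 29.03 FPKM in knockdown libraries, at an adjusted p in limma of 0.36. Exons of LTV1 overlap those of another gene on the same strand, so its value is uncertain where reads were shared. TSR1, which holds the precursor of the small subunit inactive, stood at 16.4 and 16.2 FPKM in control and at 16.6 and 18.3 FPKM in knockdown libraries. Knockdown replicate 0 of TSR1 only just passed the higher control. BYSL, bystin, a late processing factor, stood at 25.2 and 23.9 FPKM in control and at 23.8 and 26.6 FPKM in knockdown libraries. RRP12, a factor of subunit export, stood at 7.99 and 7.38 FPKM in control and at 7.18 and 8.99 FPKM in knockdown libraries. In BYSL and RRP12 knockdown replicate 0 was the lowest library and knockdown replicate 1 the highest, and the limma adjusted p were 0.84 and 0.81.

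Large-subunit assembly factors had positive log2 changes in 19 of 19 genes, with a median of 0.13, and all 19 were highest in knockdown replicate 1. Both knockdown libraries exceeded both controls in 7 of the 19, against 22.5% of all genes tested. NOC3L, a nucleolar complex protein of the early large subunit, had the smallest p of the 57 genes. It stood at 11.4 and 11.8 FPKM in control and at 13.6 and 14.2 FPKM in knockdown libraries. The groups were well apart, with means of 11.6 ± 0.238 and 13.9 ± 0.427 FPKM (SD, n = 2 each), a log2 change of 0.25 ± 0.06 (SE), an unadjusted limma p of 0.0049 and a limma adjusted p of 0.19. NOC3L (ENSG00000173145.7) spans 94333226 to 94362959 on the minus strand of chromosome 10. BRIX1, an assembly factor needed for large-subunit precursor processing, stood at 32.6 and 32.0 FPKM in control and at 34.6 and 39.9 FPKM in knockdown libraries, with a log2 change of 0.20 ± 0.07 (SE), at a limma adjusted p of 0.27. Without knockdown replicate 1 its log2 change was 0.096, and without knockdown replicate 0 it was 0.30. NIP7, a large-subunit biogenesis factor, stood at 21.6 and 21.3 FPKM in control and at 22.9 and 24.6 FPKM in knockdown libraries, at an adjusted p in limma of 0.31. Exons of BRIX1 overlap RAD1 on the opposite strand, and those of NIP7 overlap COG8.

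GNL3, the GTPase nucleostemin, was the most abundant large-subunit factor. It stood at 131 and 146 FPKM in control and at 146 and 161 FPKM in knockdown libraries. Knockdown replicate 0 lay just below control replicate 1, so the groups overlapped, with a limma adjusted p of 0.38. NOC2L, a partner of NOC3L, had the smallest change of this role, with 43.2 and 43.8 FPKM in control and 42.6 and 46.4 FPKM in knockdown libraries. Knockdown replicate 0 of NOC2L was the lowest library. The other 14 factors had ratios of 1.04 to 1.15 and limma adjusted p of 0.32 to 0.84. In 4 of them both knockdown libraries exceeded both controls, against 22.5% of all genes. Among the 14, PPAN shares exons with the readthrough gene PPAN-P2RY11. PPAN stood at 47.2 and 45.5 FPKM in control and at 43.2 and 53.1 FPKM in knockdown libraries.

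RNA polymerase I genes had positive log2 changes in 7 of 7 genes, against 46.8% of all genes, with a median of 0.06. At an unadjusted limma p under 0.05, 0 of 7 were higher, against 7.25% of all genes, and 0 were lower, against 9.35%. With 7 genes, a count of 0 cannot be told apart from those shares. UBTF, the factor that keeps ribosomal DNA open for transcription, stood at 64.0 and 62.6 FPKM in control and at 66.8 and 70.2 FPKM in knockdown libraries, with a log2 change of 0.11 ± 0.05 (SE), at a limma adjusted p of 0.34. RRN3, the initiation factor that recruits the polymerase, stood at 17.61 and 17.65 FPKM in control and at 18.98 and 19.09 FPKM in knockdown libraries. The libraries of each group of RRN3 nearly coincided, with a log2 change of 0.11 ± 0.05 (SE), at a limma adjusted p of 0.37. RRN3 has 3 annotated pseudogene copies, so reads may be shared with them. POLR1E, a polymerase subunit, stood at 30.0 and 30.2 FPKM in control and at 30.9 and 32.2 FPKM in knockdown libraries. TAF1D, a subunit of the promoter selectivity factor, was the most abundant gene of the role, with 223 and 230.3 FPKM in control and 240.2 and 224 FPKM in knockdown libraries. Its highest value was in knockdown replicate 0, and knockdown replicate 1 lay between the controls. The other 3 genes, POLR1A, POLR1B and POLR1C, had ratios of 1.04 to 1.07.

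By role and library pair, knockdown replicate 1 exceeded each control library by a median of 0.10 to 0.25 in log2 units. Knockdown replicate 0 differed from each control library by medians of -0.03 to 0.08. Against control replicates 0 and 1 in turn, the polymerase I genes had medians of 0.10 and 0.11 in knockdown replicate 1, the large-subunit factors 0.19 and 0.20 and the box H/ACA proteins 0.13 and 0.25. The difference between roles was not tested, since the genes of a role share the same 4 libraries.

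**Figure D2:**
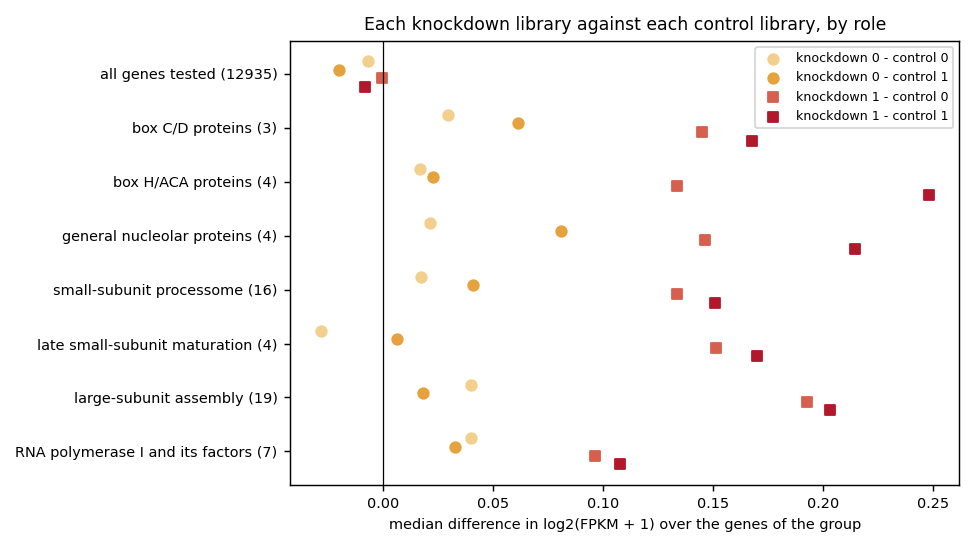
Each point is the median, over the genes of a role (number in parentheses), of the difference in log2(FPKM + 1) between 1 knockdown and 1 control library. The red squares (knockdown replicate 1) lie at 0.10 to 0.25 in every role, and the circles (knockdown replicate 0) at -0.03 to 0.08. All genes tested lie near 0.

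GC content moved with the values of knockdown replicate 0. Across the 57 genes, which share the 4 libraries and are not independent replicates, Spearman's rho between transcript GC content and the difference from the control mean was -0.62 in knockdown replicate 0 and -0.12 in knockdown replicate 1. Over the 12499 genes with a GC value it was -0.54 and -0.21. The 19 genes of lowest GC content (35.2% to 43.1%) had both knockdown libraries above both controls in 13, the 19 of middle GC content in 13, and the 19 of highest GC content (51.6% to 63.8%) in 3. Over all genes tested, of any GC content, 22.5% did so. That share was not split by GC content. The median GC content was 47.8% in the 57 genes and 48.6% in all genes tested. With the GC trend removed from each library, 53 of 57 log2 changes were positive, their median was 0.10, and 5 genes had an unadjusted limma p under 0.05, against 5.46% of all genes. GC content also went with the difference between libraries of 1 group. For knockdown replicate 1 minus replicate 0, rho was 0.38 in the 57 genes and 0.34 over all genes, and for control replicate 1 minus replicate 0 it was -0.46 and 0.05.

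**Figure D3:**
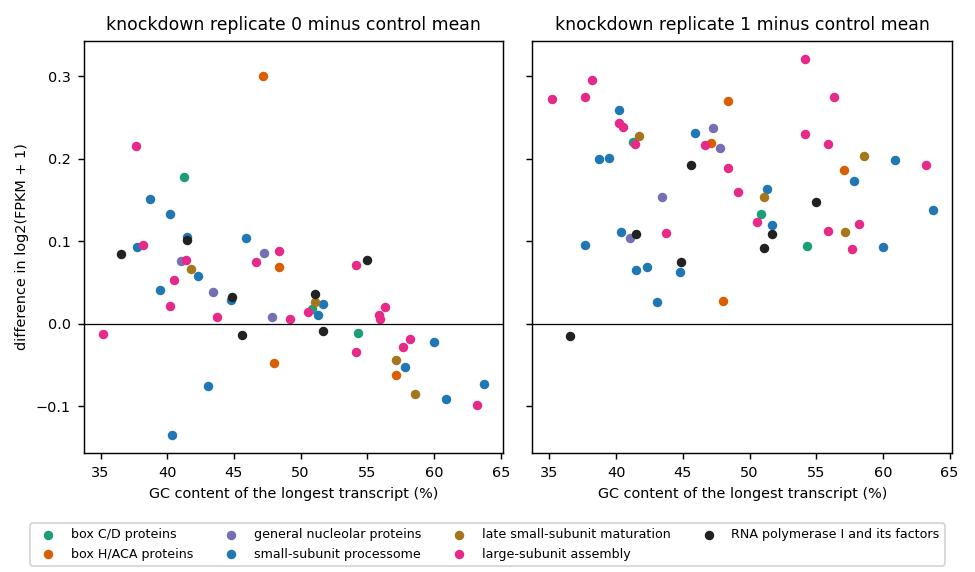
Points are the 57 genes, coloured by role. The x axis is the GC content of the longest annotated transcript and the y axis the difference in log2(FPKM + 1) from the control mean, for knockdown replicate 0 (left) and knockdown replicate 1 (right). On the left values fall with GC content (rho -0.62). On the right they stay above 0 in 56 of 57 genes at every GC content.

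Small nucleolar RNA genes lie inside 10 of the 57 genes on the same strand (17.5%), against 1.87% of the 11133 protein-coding genes tested. The hosts are NOP56, NOP58, DKC1, NCL, WDR43, TSR1, GNL3, PPAN, POLR1C and TAF1D, and TAF1D holds 8 such genes. The median log2 change was 0.09 in the 10 hosts and 0.09 in the other 47 genes. Both knockdown libraries exceeded both controls in 5 of 10 and 24 of 47, against 22.5% of all genes tested. Exons of 23 of the 57 genes overlap a gene on the opposite strand, and strand-specific counting is not stated, so reads of such pairs cannot be told apart. Named pseudogene copies are annotated for 13 of the 57, so reads may be shared with those copies. Besides RRN3 they include NCL, DDX10, BRIX1, NOP56, NHP2, LYAR, LTV1 and NIP7.

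Other ribosome biogenesis genes, 102 tested of 103 matched in a list of 108, lay on the same side with a smaller median. Log2 changes were positive in 82 of 102, against 46.8% of all genes, and their median was 0.06. In limma 0 of 102 passed over all genes. At an unadjusted limma p under 0.05, 10 of 102 were higher, against 7.25% of all genes, and 1 was lower, against 9.35%. Of the 102, 68 had their highest value in knockdown replicate 1, against 27.2% of all genes. RSL24D1, a large-subunit assembly factor, stood at 175 and 176 FPKM in control and at 209 and 207 FPKM in knockdown libraries, with a log2 change of 0.24 ± 0.05 (SE), at a limma adjusted p of 0.19. NOL11, a processome subunit, stood at 43.7 and 41.7 FPKM in control and at 50.1 and 54.0 FPKM in knockdown libraries, with the same limma adjusted p of 0.19. In both genes the knockdown values lay well above the controls. In the other direction EXOSC6, a subunit of the RNA exosome, stood at 9.64 and 10.2 FPKM in control and at 7.45 and 8.54 FPKM in knockdown libraries, at an adjusted p in limma of 0.21. NOB1, the nuclease that makes the mature end of 18S RNA, stood at 92.0 and 93.4 FPKM in control and at 83.2 and 87.8 FPKM in knockdown libraries.

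By list, the median log2 change was 0.05 in 32 other small-subunit genes, 0.06 in 43 other large-subunit genes, 0.07 in 8 other snoRNP assembly genes and 0.08 in 12 RNA exosome genes. It was 0.02 in 7 other polymerase I genes. There POLR1F, a polymerase I subunit, stood at 14.5 and 14.3 FPKM in control and at 14.2 and 17.2 FPKM in knockdown libraries, and TAF1C, a subunit of the selectivity factor, at 18.1 and 18.5 FPKM and at 16.6 and 17.0 FPKM. TAF1C was lower in both knockdown libraries, at an adjusted p in limma of 0.34. NUFIP1, which helps assemble box C/D particles, stood at 3.91 and 3.41 FPKM in control and at 4.32 and 4.35 FPKM in knockdown libraries. SNU13, a box C/D core protein outside the 57, stood at 118 and 117 FPKM in control and at 108 and 121 FPKM in knockdown libraries, so its groups overlapped. EXOSC8 had a ratio of 1.08 and ZNF622, of the other large-subunit genes, 0.952.

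The other polymerases and translation genes had median log2 changes nearer to that of all genes tested, while some of their counts did not. RNA polymerase II subunits had a median log2 change of 0.001 over 8 genes, subunits shared by the polymerases 0.003 over 5, and RNA polymerase III subunits 0.02 over 11. Cytosolic tRNA synthetases had 0.04 over 20 genes and mitochondrial ribosomal proteins 0.01 over 35. Log2 changes were positive in 4, 3, 9, 15 and 20 genes, in the same order, against 46.8% of all genes. Both knockdown libraries exceeded both controls in 4, 1, 1, 6 and 5, against 22.5%. Of the 7 other polymerase I genes 5 were positive, with a median of 0.02, as in polymerase III subunits. In limma 0 genes of these lists passed over all genes, with 1, 1, 0, 0 and 3 higher and 0 lower at an unadjusted p under 0.05, in the same order. Of all genes 7.25% were higher and 9.35% lower at that threshold. The genes of smallest p on the higher side were POLR2B, POLR2K, POLR3B, RARS1 and MRPL1, at ratios of 1.10, 1.11, 1.11, 1.09 and 1.22. On the lower side they were POLR2J, POLR2L, POLR3GL, AARS1 and MRPL22, at ratios of 0.930, 0.872, 0.969, 0.931 and 0.914. Of the 35 mitochondrial ribosomal protein genes 25 had their highest value in knockdown replicate 1, although their median log2 change was close to that of all genes. No test of the difference between lists was run.

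**Figure D4:**
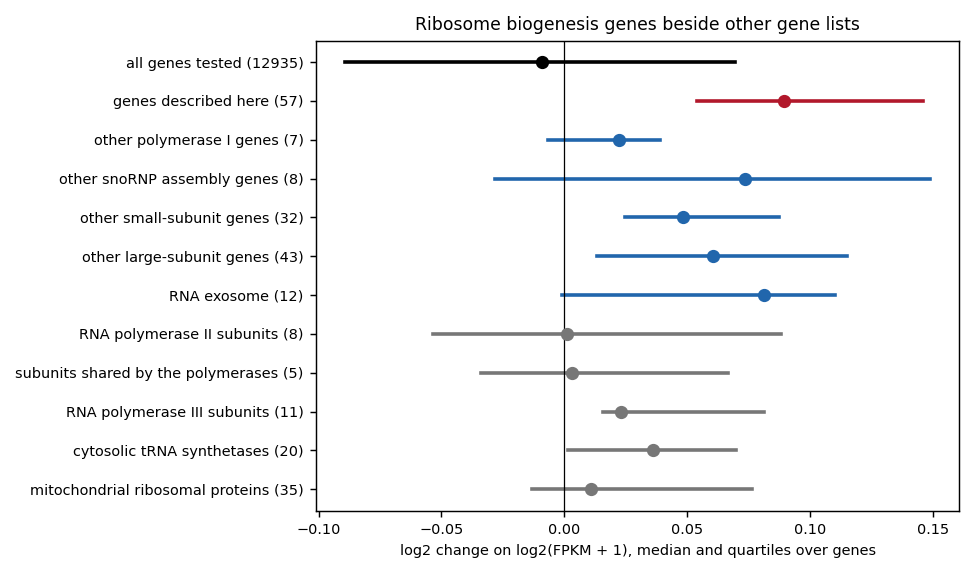
Points give the median log2 change on the log2(FPKM + 1) scale over the genes of each list (number tested in parentheses), and lines run from the lower to the upper quartile. The 57 genes described here have a median of 0.09 and the other ribosome biogenesis lists 0.02 to 0.08. The lists of other polymerases and translation genes have 0.001 to 0.04.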

How the data were processed

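The deposited table holds 1 value per gene and library, read here as FPKM that the authors made with Cuffdiff, since its ID column is named as in Cuffdiff output and the values sum to between 812554 and 853609 in each column without being whole. Bowtie2 2.2.5, TopHat2 2.0.14, Cuffdiff 2.2.1 and the build hg19 appear, per the submitters' processing notes, with no role or order. The options, annotation and scaling between libraries were not given in the sources used here.

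IDs were named from a table of current symbols and from GENCODE 29 on GRCh38, which also gave positions, gene types and the GC content and length of the longest transcript (12499 of 12935 genes tested, 96.6%). Depth was read from steps in FPKM times length in 1214 genes with 1 transcript of at least 2500 nt, where 81.4% to 90.5% of low values lay within 0.15 of a whole multiple (30% if evenly spread).

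The 2 groups were compared by limma 3.58.1 (R 4.3.3) on log2(FPKM + 1), which understates the change of low genes, for genes averaging 1 FPKM or more plus HAL7, with a variance trend, two-sided tests and p-values adjusted over all genes by Benjamini-Hochberg to a threshold of 0.05. For 1 gene alone, exact permutation of 2 against 2 libraries reaches no two-sided p below 0.333. The fit was run on simulated data with independent noise in each gene. No shift shared by a library was simulated, so that run does not bear on such shifts. The genes, lists and settings were chosen with earlier results of these data known. Per role, the 3 genes of smallest p, the most abundant and the lowest in log2 change are named, and in each other list the gene of smallest p in each direction. HEATR1, RRP9, PPAN, POLR1A, POLR1B, POLR1C and NOLC1 were added after their values were seen. Promoters are from RefSeq on GRCh38.p14; 7 genes had no entry. Settings tried were other pseudocounts, filters and normalizations, no variance trend, GC correction, protein-coding genes only, the replicate number as a block, and leaving out each library, where a lone library is assumed to vary like the other group.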

Additional observations from a re-analysis of the deposited data

How the results depend on the processing

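Over the settings tried, 0 of the 57 genes passed limma's adjusted p of 0.05, with 2 to 31 at an unadjusted p under 0.05 on the higher side and 0 on the lower. The count of all genes called was 4 as reported, 2 with a pseudocount of 0.1, 1 with a mean of at least 5 FPKM, 0 in limma with no filter (1275 higher and 1727 lower at an unadjusted p under 0.05), 19 with the replicate number as a block and 11 to 22 when a library was left out. The replicate numbers pair nothing in the labels: differences between replicates 0 and 1 correlated at 0.12 between the groups across genes, and under the block 9 of the 57 genes were higher at an unadjusted p under 0.05 (7.26% of all genes), and 6 with the block and the GC trend removed (4.84%). Genes among the 57 at an unadjusted limma p under 0.05 on the higher side numbered 13 with quantile normalization (8.17% of all genes), 5 with the GC trend removed (5.46%) and 2 to 31 when a library was left out (2.98% to 8.13%).

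When a library was left out, the median log2 change ranged from 0.024 to 0.16 over the 57 genes, 0.018 to 0.13 in box C/D proteins, 0.011 to 0.20 in box H/ACA proteins, 0.057 to 0.18 in general nucleolar proteins, 0.027 to 0.13 in the processome, -0.0084 to 0.18 in late small-subunit factors, 0.014 to 0.22 in large-subunit factors, 0.036 to 0.11 in polymerase I genes, 0.014 to 0.095 in other ribosome biogenesis genes, -0.0029 to 0.0051 in polymerase II subunits, -0.066 to 0.072 in subunits shared by the polymerases, -0.011 to 0.064 in polymerase III subunits, 0.0013 to 0.049 in tRNA synthetases and -0.039 to 0.090 in mitochondrial ribosomal proteins. Polymerase II subunits had -0.017 with the GC trend removed, with and without the replicate block. Among genes named by rule, the sign of the log2 change turned when a library was left out in FBL (-0.031 to 0.11), NHP2 (-0.063 to 0.19), NOP10 (-0.047 to 0.027), WDR43 (-0.13 to 0.11), UTP6 (-0.15 to 0.097), RRP12 (-0.085 to 0.20), BYSL (-0.043 to 0.11), NOC2L (-0.029 to 0.091) and TAF1D (-0.015 to 0.085), and in TAF1D to -0.058 with the GC trend removed, with and without the replicate block. Of the other genes, RRP9 (-0.091), PPAN (-0.098), POLR1A (-0.0087), POLR1C (-0.014), NOL6, TBL3, PWP2, PES1, NOP16 and RRP15 were negative without knockdown replicate 1. Named genes that kept their sign but moved by over 1.5 times, beside those in the report, were NOP56 (0.018 to 0.13), DKC1 (0.069 to 0.27), DDX21 (0.045 to 0.13), LYAR (0.038 to 0.15), UTP18 (0.10 to 0.23), LTV1 (0.067 to 0.23), TSR1 (0.026 to 0.15), NIP7 (0.088 to 0.19), GNL3 (0.065 to 0.23) and POLR1E (0.036 to 0.092). The cause was not tested.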
